A study of Mus musculus with 2 samples.

Results

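Binding of p300 was examined around 8 genes for transcription factors that pattern the dorsal telencephalon: *Pax6*, *Emx1*, *Emx2*, *Nr2f1*, *Nr2f2*, *Sp8*, *Otx1* and *Otx2*. A p300 peak was assigned to a gene when its midpoint lay inside the gene body or no more than 500 kb from the transcription start site, taken from the transcript with the longest coding sequence. By this rule 50 of the 6629 deposited peaks belonged to the 8 genes, out of 22367 protein-coding genes annotated on the same assembly, and no peak belonged to more than 1 of the 8. The peaks come from 1 chromatin immunoprecipitation library made with an antibody to p300, a co-activator that is enriched at active enhancers. The tissue was dorsal cerebral wall dissected at E14.5 from Swiss Webster embryos, from which the hippocampal primordium, the cortical hem and the choroid plexus had been cut away, and the number of embryos is not given in the sources used here. The input library served the authors as the control for peak calling and was not analysed here. With a single library no condition is compared, and each p below compares a count of peaks with even placement along the assembled genome. The list gives positions only, so neither the reads behind a peak nor the expression of any gene can be read from it, and the labelled tissue could not be checked against marker expression.

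Gradients of transcription factors across the cortical neuroepithelium divide it into areas. *Pax6* (paired box and homeobox) is expressed in ventricular zone progenitors, higher rostrolaterally, and *Emx2* (homeobox) in an opposed gradient, higher caudomedially. *Emx1*, the paralog of *Emx2*, is expressed throughout the dorsal telencephalon. *Nr2f1* and *Nr2f2* encode the orphan nuclear receptors COUP-TFI and COUP-TFII, which are higher in caudal cortex, and *Sp8*, a zinc finger gene, is higher rostromedially. *Otx1* is expressed in cortical progenitors and deep layer neurons, whereas *Otx2*, which is required for the early forebrain, is later expressed in the choroid plexus and cortical hem, tissues that the dissection removed.

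To show a listed peak for each gene, the middle 200 bases of the one nearest each start site are given on the plus strand of mm9. Peaks closer than 2.5 kb to a start site had been removed by the authors, so closer binding may be missing. Capitals mark matches to any of 8 short sites searched on both strands, which are named with the site counts. Peak numbers are those the authors gave in the list.
Pax6 peak 3497, chr2:105560353-105560552: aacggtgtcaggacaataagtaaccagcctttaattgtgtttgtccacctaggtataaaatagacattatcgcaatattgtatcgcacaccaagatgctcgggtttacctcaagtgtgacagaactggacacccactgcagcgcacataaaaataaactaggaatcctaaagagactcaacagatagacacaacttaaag
Emx1 peak 5322, chr6:85156905-85157104: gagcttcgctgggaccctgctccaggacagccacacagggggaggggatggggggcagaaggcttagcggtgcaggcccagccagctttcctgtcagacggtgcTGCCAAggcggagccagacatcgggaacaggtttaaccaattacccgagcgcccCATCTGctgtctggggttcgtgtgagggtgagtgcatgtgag
Emx2 peak 3169, chr19:59540471-59540670: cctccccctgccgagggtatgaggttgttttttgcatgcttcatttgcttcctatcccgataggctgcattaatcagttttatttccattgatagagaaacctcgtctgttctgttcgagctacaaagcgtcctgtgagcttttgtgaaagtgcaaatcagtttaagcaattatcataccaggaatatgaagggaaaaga
Nr2f1 peak 1709, chr13:78239559-78239758: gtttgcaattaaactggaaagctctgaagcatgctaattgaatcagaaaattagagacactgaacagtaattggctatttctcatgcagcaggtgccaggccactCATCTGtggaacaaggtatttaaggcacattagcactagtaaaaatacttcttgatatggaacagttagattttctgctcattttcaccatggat
Nr2f2 peak 5571, chr7:77678592-77678791: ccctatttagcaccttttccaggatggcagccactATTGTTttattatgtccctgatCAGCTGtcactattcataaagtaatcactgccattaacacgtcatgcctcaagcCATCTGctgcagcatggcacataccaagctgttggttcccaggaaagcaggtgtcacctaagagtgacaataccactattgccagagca
Sp8 peak 1478, chr12:120079205-120079404: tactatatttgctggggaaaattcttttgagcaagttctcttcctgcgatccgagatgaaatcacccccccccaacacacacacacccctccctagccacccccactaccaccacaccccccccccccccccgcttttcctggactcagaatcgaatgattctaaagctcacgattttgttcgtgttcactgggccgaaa
Otx1 peak 748, chr11:21979122-21979321: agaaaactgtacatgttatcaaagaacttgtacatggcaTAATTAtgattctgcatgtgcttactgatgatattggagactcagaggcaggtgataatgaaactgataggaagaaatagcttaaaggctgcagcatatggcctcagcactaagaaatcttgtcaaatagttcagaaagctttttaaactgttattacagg
Otx2 peak 1929, chr14:49228316-49228515: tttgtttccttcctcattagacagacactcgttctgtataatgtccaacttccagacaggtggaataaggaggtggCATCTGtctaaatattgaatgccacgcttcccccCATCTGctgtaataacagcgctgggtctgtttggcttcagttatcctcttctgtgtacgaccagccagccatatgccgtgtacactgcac

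None of the 50 peaks lay inside the gene it was assigned to, and they were spread on both sides of the start sites with a different layout at each gene. Few could lie inside, since the genes ended 6.25 (*Sp8*) to 34.3 kb (*Pax6*) past their start sites. Peaks over exons or near start sites had also been removed by the authors. Of the 50, 8 (16.0%, exact Clopper-Pearson 95% interval 7.17 to 29.1%) were within 50 kb of the start site, and 16 (32.0%, 19.5 to 46.7%) were within 100 kb. These counts are totals over 8 genes, and of the 8 peaks within 50 kb *Emx1* held 5, *Emx2* 2 and *Sp8* 1. For scale, a single protein-coding gene had on average 0.175 peaks within 50 kb, 0.388 within 100 kb and 2.38 within 500 kb. For 25 of the 50 (50%, 35.5 to 64.5%) the start site of the named gene was the nearest of any protein-coding gene. The midpoint was in an intron of some gene for 21 peaks (42.0%) and outside every annotated gene for 29 (58.0%), against 44.9% and 54.5% of all peaks. The intervals cover counting error only, and peaks of 1 locus are not independent of each other.

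**Figure D1:**
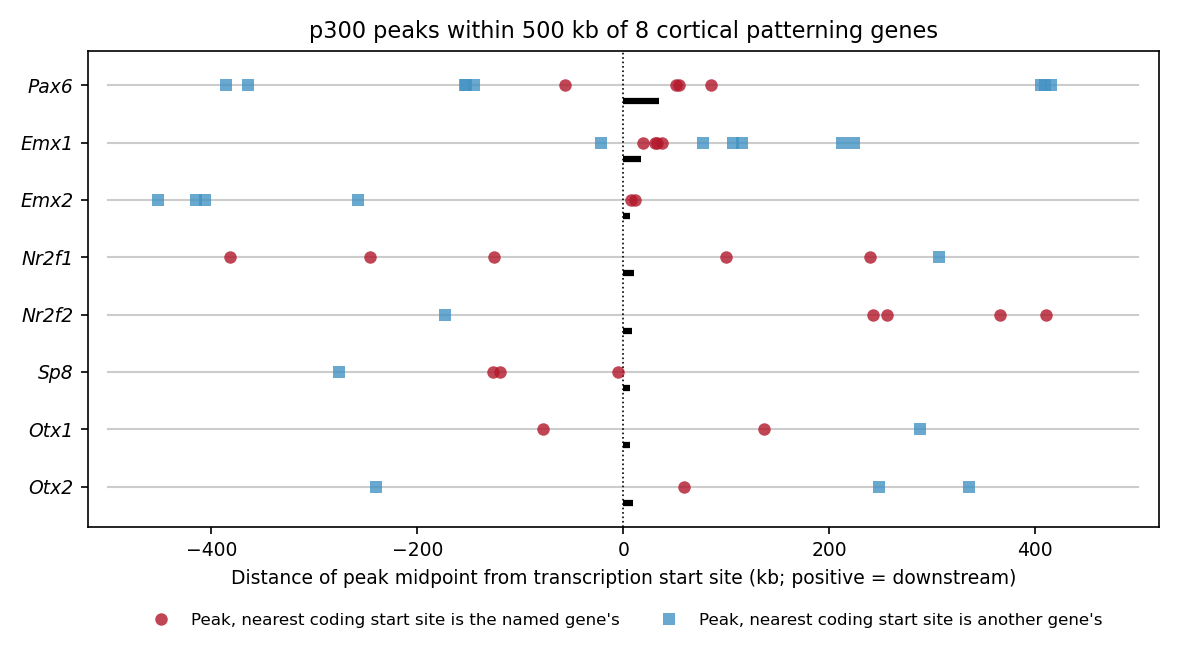
Midpoints of the 50 p300 peaks plotted by distance in kb from the start site of each of 8 genes, with positive values downstream in the direction of transcription and black bars for the gene bodies. Circles mark peaks whose nearest protein-coding start site is that of the named gene, squares those nearer to another gene: all 4 *Sp8* peaks are upstream, 9 of 10 *Emx1* peaks are downstream, and *Nr2f2* has none within 100 kb.

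The 8 genes differed in how many peaks they had, from 12 at *Pax6* to 3 at *Otx1*. *Emx1* had 10 peaks, *Emx2* and *Nr2f1* had 6 each, *Nr2f2* had 5, and *Sp8* and *Otx2* had 4 each. Even placement would put 2.59 in a window of this length, and the median protein-coding gene had 1. *Pax6* had 4.63 times the expected number (adjusted p = 0.00145) and *Emx1* 3.86 times (adjusted p = 0.0131), both by an exact binomial test, one-sided, with the Benjamini-Hochberg adjustment made over every protein-coding gene. The other 6 genes did not pass: the folds were 2.32 for *Emx2* and *Nr2f1* (adjusted p = 0.383 by the exact test), 1.93 for *Nr2f2* (adjusted p = 0.684 by the exact test), 1.54 for *Sp8* and *Otx2*, and 1.16 for *Otx1*. Thus 2 of the 8 genes passed, where 4.09% of all protein-coding genes did. The number of protein-coding genes with as many peaks or more was 275 for *Pax6*, 608 for *Emx1*, 2840 for *Emx2* and *Nr2f1*, 3982 for *Nr2f2*, 5565 for *Sp8* and *Otx2*, and 7895 for *Otx1*. The exact Poisson 95% interval was 6.20 to 21.0 for *Pax6* and 0.619 to 8.77 for *Otx1*. These overlap, but overlap of intervals is no test, and differences in count between the 8 genes were not tested. Both calls were lost once peaks less than 5 kb apart were joined, which left 8 peaks and a fold of 3.35 at each of *Pax6* and *Emx1* (adjusted p = 0.0892 for either by the exact test, and p = 0.00323 unadjusted). The call of *Emx1* was also lost when only peaks of median width or more were counted, of which it had 4, a fold of 3.08 (exact test, adjusted p = 0.455), and that of *Pax6* within 100 kb of the start site (fold 7.72). Neighbouring genes share peaks and peaks lie close together, and the test takes peaks as independent, so its p-values may be too small.

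**Figure D2:**
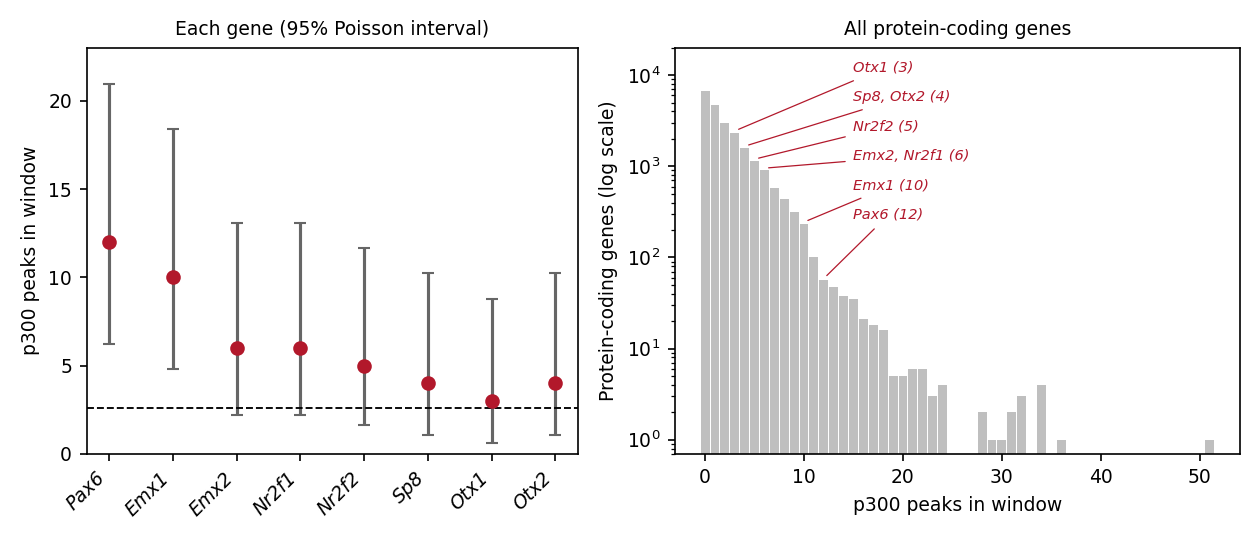
Left, the number of p300 peaks in the window of each of the 8 genes, with exact 95% Poisson intervals and a dashed line at the 2.59 expected from even placement. Right, the number of protein-coding genes (log scale) by peaks in the window, with the 8 genes pointed out: *Pax6* (12) and *Emx1* (10) lie well to the right of the median of 1.

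The 12 peaks of *Pax6* (ENSMUSG00000027168, plus strand, chr2:105509053-105543317) fell into separate groups, 6 upstream and 6 downstream. The upstream groups were a pair 386.3 and 364.7 kb away, in introns of 0610012H03Rik, and 3 peaks at 153.8, 152.5 and 145.2 kb. The first pair of those 3, numbers 3493 and 3494, were separated by 62 bp. A further peak, number 3496, stood alone 56.6 kb upstream, in an intron of the antisense RNA gene *Pax6os1*. Downstream, 3 peaks lay 51.4, 53.7 and 84.8 kb from the start site, all in intron 9 of *Elp4*. *Elp4* encodes a subunit of the Elongator complex, runs on the opposite strand (chr2:105537477-105744721) and overlaps the end of *Pax6*, and its introns are known to hold long-range enhancers of *Pax6*. Measured from the end of *Pax6*, these 3 peaks were 17.1, 19.4 and 50.5 kb away, and *Pax6* had the nearest coding start site for each. The first of them, number 3497, was 2665 bp wide, the widest of the 50, and 99.2% of all peaks were no wider. The last group, at 405.7, 409.9 and 415.1 kb, was nearer to *Dnajc24*, a J-domain gene of diphthamide synthesis. *Pax6* therefore had 4 of its 12 peaks nearest to its own start, and none within 50 kb.

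Peak 3498 follows the widest *Pax6* peak after 371 bp. Its middle 300 bases held sites of 4 of the 8 kinds searched, as many kinds as any of the 50 peaks, and 7 sites in all, and they are shown for that reason, which was decided on once the counts were known. Peaks 5325 and 5326 of *Emx1*, 1712 of *Nr2f1* and 5571 of *Nr2f2* also held 4 kinds. The capitals are the Nfi site at 3 places (TGCCAA on this strand), the E-box CAGATG or its reverse CATCTG at 2, the Otx-type site GGATTA and the Sox site ATTGTT.
Pax6 peak 3498, chr2:105562559-105562858: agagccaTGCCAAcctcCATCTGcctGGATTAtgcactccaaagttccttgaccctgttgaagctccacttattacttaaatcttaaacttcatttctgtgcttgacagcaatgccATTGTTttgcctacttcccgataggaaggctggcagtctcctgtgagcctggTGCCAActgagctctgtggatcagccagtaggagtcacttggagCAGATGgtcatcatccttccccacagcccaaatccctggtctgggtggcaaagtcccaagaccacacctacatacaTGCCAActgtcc

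The peaks of *Emx1* (ENSMUSG00000033726, plus strand, chr6:85137432-85154456) had the shortest median distance of the 8 genes, 57.4 kb, and all but 1 lay on the downstream side. The only upstream peak was 21.9 kb away, and the other 9 ran downstream from 19.6 to 224 kb. Of these, the nearest was 2.55 kb past the end of *Emx1*, and the next 6 were in introns of *Sfxn5*, a gene of the sideroflexin family of mitochondrial transporters that lies tail to tail with *Emx1*. Introns 13, 9, 3 and 2 of *Sfxn5* held 3, 1, 1 and 1 of them, and peak 5326 in intron 9 also touched an annotated exon. Within 50 kb of the start site *Emx1* had 5 peaks, a count reached by 30 protein-coding genes with *Emx1* included, while 87.2% had none. Peaks 5323 and 5324, 88 bp apart, and 5325 formed the tightest group, between 31.2 and 37.1 kb from the start. The farthest pair, at 213 and 224 kb, was nearer to *Noto*, a homeobox gene of the notochord, and all 10 peaks also fell in the window of *Noto*. Beyond 21.9 kb on the upstream side no peak was found in the rest of the window, and the next was 721 kb away.

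*Emx2* (ENSMUSG00000043969, plus strand, chr19:59533180-59539847) had 6 peaks, arranged unlike those of its paralog. Peaks 3169 and 3170 lay directly behind the gene, 0.723 and 5.11 kb past its end and 7.39 and 11.8 kb from its start. These were the only peaks within 250 kb, and 711 protein-coding genes had at least 2 within 50 kb. The other 4 were 258 to 452 kb upstream, 3 of them in introns of 4930506M07Rik and 1 near *Kcnk18*, a potassium channel gene. All 6 were shared with the window of *Vax1*, a homeobox gene of the ventral forebrain and eye, which had 8 peaks. Downstream of peak 3170 the rest of the window held no peak. The intervals of *Emx1* (4.80 to 18.4) and *Emx2* (2.20 to 13.1) overlap, and the difference between their counts was not tested.

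The peaks of *Nr2f1* (ENSMUSG00000069171, minus strand, chr13:78328234-78339018) were far apart, with 3 on either side of the gene. On the upstream side 3 lay in intergenic sequence 125, 246 and 382 kb from the start, and on the downstream side 3 lay at 99.4, 240 and 306 kb in introns 10, 8 and 6 of *Fam172a*. No 2 of them were closer than 66.7 kb, and *Nr2f1* had the nearest coding start site for 5 of the 6. The outermost peak on each side was broad: number 1712 was 2515 bp and number 1707 was 2597 bp wide, and at least 98.9% of all peaks were no wider than either.

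*Nr2f2* (ENSMUSG00000030551, minus strand, chr7:77496832-77511621) had 5 peaks, all intergenic and none within 100 kb. Downstream, 4 lay at 242, 256, 365 and 410 kb, and these were nearest to *Nr2f2* among coding genes. They were 1632, 1966, 1421 and 1548 bp wide, and at least 83.2% of all peaks were no wider than any of them. Upstream there was a single peak of 867 bp at 173 kb, nearer to the start site of B130024G19Rik (147 kb). Between this peak and the closest downstream peak 415 kb of sequence, with *Nr2f2* in it, held no peak. Outside the window the next peaks were more than 1 Mb from the *Nr2f2* start site on either side (1345 kb upstream and 1142 kb downstream). *Nr2f1* and *Nr2f2* had 6 and 5 peaks, with overlapping intervals (2.20 to 13.1 and 1.62 to 11.7).

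*Sp8* (ENSMUSG00000048562, plus strand, chr12:120084802-120091051) had 4 peaks, all upstream and intergenic. Peak 1478, 1556 bp wide, was 5.50 kb upstream of the start site, the shortest distance to a start site among the 50. Peaks 1476 and 1477 lay 126 and 120 kb away with 4680 bp between them, and peak 1475, at 276 kb, was nearer to *Sp4*, another zinc finger gene of the family. From *Sp8* to the end of the chromosome, 1.17 Mb, the list holds no further peak.

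*Otx1* had the fewest peaks of the 8 genes, and *Otx2* as many as *Sp8*. *Otx1* (ENSMUSG00000005917, minus strand, chr11:21894767-21902900) had 3, all in introns of its neighbours: 2 in introns 15 and 10 of *Wdpcp*, a gene of planar cell polarity and ciliogenesis, 137 and 288 kb downstream, and 1 in intron 14 of *Ehbp1*, an endocytic adaptor gene, 77.6 kb upstream. *Otx2* (ENSMUSG00000021848, minus strand, chr14:49277354-49287319) had 4, all intergenic, at 58.8, 249 and 336 kb downstream and 240 kb upstream, of which only the first had *Otx2* as its nearest coding gene. Its 4 peaks were of similar width, 956 to 1051 bp, close to the median of all peaks. Peak 1928 downstream of *Otx2* held the core homeodomain site TAATTA 4 times in its middle 300 bases, more than any other of the 50 peaks, and the sequence is shown for that reason, again decided on once the counts were known. Here the capitals mark TAATTA alone.
Otx2 peak 1928, chr14:49038383-49038682: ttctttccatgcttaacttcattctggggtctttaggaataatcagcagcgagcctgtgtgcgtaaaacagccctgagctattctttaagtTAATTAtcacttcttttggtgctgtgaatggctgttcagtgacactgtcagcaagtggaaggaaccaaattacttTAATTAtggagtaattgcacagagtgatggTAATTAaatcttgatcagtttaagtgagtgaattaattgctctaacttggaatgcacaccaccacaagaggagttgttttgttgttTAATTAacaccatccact

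**Figure D3:**
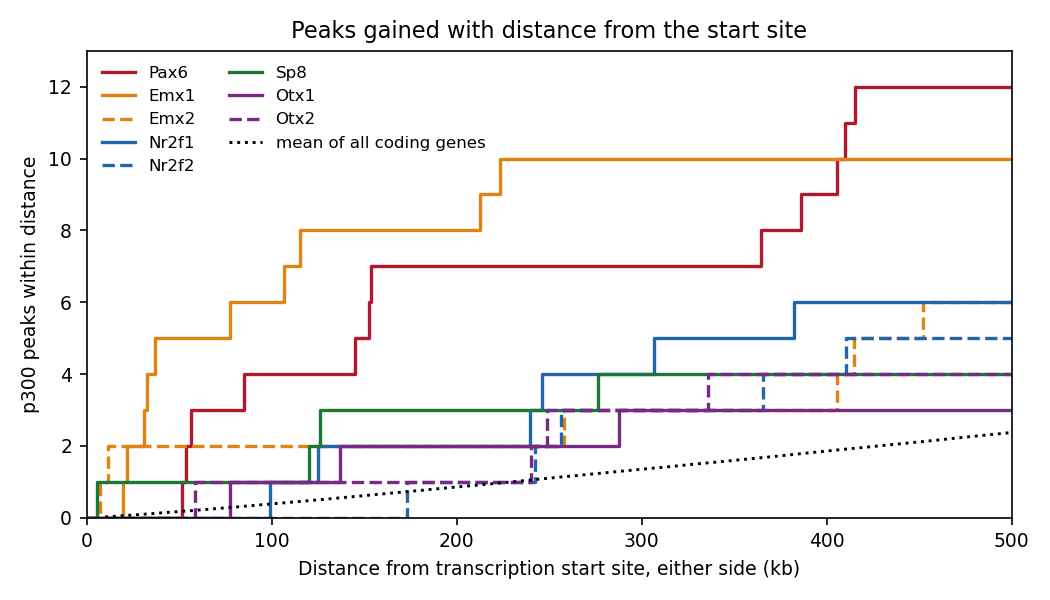
Number of p300 peaks within a given distance (kb, either side) of the start site of each of the 8 genes, with a dotted line for the mean of all protein-coding genes. *Emx1* reaches 5 peaks by 50 kb and *Pax6* has 7 by 250 kb, while *Nr2f2* has its first at 173 kb.

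Within 100 kb *Emx1* had 6 peaks and *Pax6* 4, *Emx2* had 2, *Nr2f1*, *Sp8*, *Otx1* and *Otx2* had 1 each, and *Nr2f2* had none, against a mean of 0.388 over all protein-coding genes. *Emx1* still passed the exact test at this distance (11.6-fold, adjusted p = 0.00481) and *Pax6* did not (7.72-fold, adjusted p = 0.123 by the exact test). An association rule like that of GREAT, the tool used in the study, was applied as well, but without its curated domains and with the GENCODE vM1 start sites. In it a gene is given 5 kb before and 1 kb after its start site, extended on both sides. The extension stops at the same core of the next gene and goes no farther than 1 Mb. Domains of neighbours overlap, so a peak between 2 genes can count for both. *Emx1* then had 8 peaks in a domain of 0.176 Mb, 17.5 times the expected number (adjusted p = 1.4e-05, one-sided exact binomial test), and *Pax6* had 7 in 0.495 Mb, a fold of 5.45 (adjusted p = 0.0366 by the exact test). These 2 passed and the other 6 did not, where 1.14% of all protein-coding genes passed. *Nr2f1* had the longest domain of the 8, 1.49 Mb, with 9 peaks and a fold of 2.33 (adjusted p = 0.603 by the exact test).

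The 50 peaks were somewhat wider and less GC-rich than the whole list. The median width was 1104 bp (quartiles 989 and 1489) against 1017 bp for all peaks, and 34 of the 50 (68.0%, 53.3 to 80.5%) were wider than that value. Peaks wider than 1643 bp, the 90th percentile of the list, numbered 5 (10%), 1 each at *Pax6*, *Emx2* and *Nr2f2* and 2 at *Nr2f1*. The median GC content was 42.7% against 45.2%. *Emx1* went the other way, with all 10 peaks between 46.1 and 57.5% GC and a median of 53.3%. At *Nr2f1* the median was 37.2%, and no *Nr2f1*, *Nr2f2*, *Sp8* or *Otx1* peak was above the median of all peaks. A neighbouring peak with a gap under 5 kb was found for 14 of the 50 (28.0%, 16.2 to 42.5%) and for 14.7% of all peaks, and 7 of the 14 were at *Pax6*. Differences between the 50 peaks and the rest were not tested, since peaks of a locus are not replicates.

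**Figure D4:**
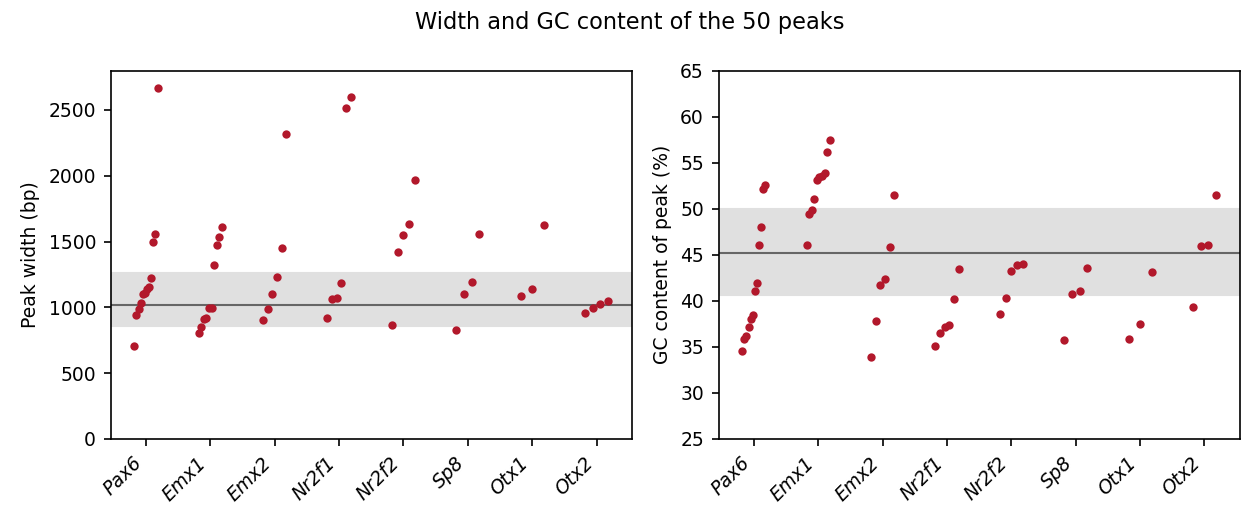
Width in bp (left) and GC content in % (right) of each of the 50 peaks by gene, with the quartiles of all 6629 peaks as a grey band and their median as a line. The widest points are at *Pax6*, *Nr2f1* and *Emx2*, and all *Emx1* peaks are above 46% GC.

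Short sites bound by these factors or by other cortical regulators were counted in the middle 300 bases of every peak. Each was searched on both strands. The homeodomain core TAATTA is part of sites for Emx, Lhx and many other homeodomain proteins, and TAATCC is the type of site that Otx proteins prefer. AGGTCA is an element of nuclear receptor sites, as for Nr2f proteins, and GGGCGG is the core of the box bound by Sp factors. CAGCTG is an E-box of bHLH factors, while the E-box CAGATG is preferred by Neurog and Neurod proteins. TTGGCA is bound by Nfi proteins, and AACAAT is bound by Sox proteins. Matches of different sites can share letters, as those of the homeodomain core with the Otx type. The homeodomain core TAATTA was present in 18 of the 50 peaks (36%, 22.9 to 50.8%) and in 23.5% of all peaks over the same length, a share just inside the interval. Over the middle 500 bases it was present in 25 (50%, 35.5 to 64.5%) against 31.3%, and over the whole peaks in 35 (70%, 55.4 to 82.1%) against 46.7%, both shares of all peaks lying below the interval. The part of the lower GC content and the greater width of the 50 peaks in this was not tested. The intervals take peaks of 1 locus as independent and make no allowance for 8 sites counted at several lengths. No difference in the share of a site was tested. In the middle 300 bases TAATTA was in 6 of 10 peaks at *Emx1* and 5 of 12 at *Pax6*. *Emx2* had it in 2 of 6 peaks, and *Nr2f1*, *Nr2f2*, *Sp8*, *Otx1* and *Otx2* in 1 peak each. For the other 7 sites the share of all peaks was inside the interval of the 50: the E-box CAGATG was in 46.0% against 45.7%, CAGCTG in 32.0% against 30.9%, TTGGCA in 32.0% against 31.6%, AACAAT in 14.0% against 17.1%, TAATCC in 14.0% against 9.96%, AGGTCA in 12.0% against 11% and GGGCGG in 6% against 8.27%. Over the same 300 bases GGGCGG was found at *Emx1* alone, in 3 peaks, and TAATCC at *Pax6* (3), *Emx2* (2), *Nr2f1* (1) and *Sp8* (1). Over whole peaks GGGCGG was also at *Pax6* (2), *Emx2* (1) and *Nr2f2* (1), and TAATCC was at all 8 genes. In the printed 200 bases, CATCTG appears in the peaks of *Emx1*, *Nr2f1* and *Nr2f2* and at 2 places in that of *Otx2*, and those of *Pax6*, *Emx2* and *Sp8* hold none of the 8 sites. A match is a description of the letters and does not show binding.

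**Figure D5:**
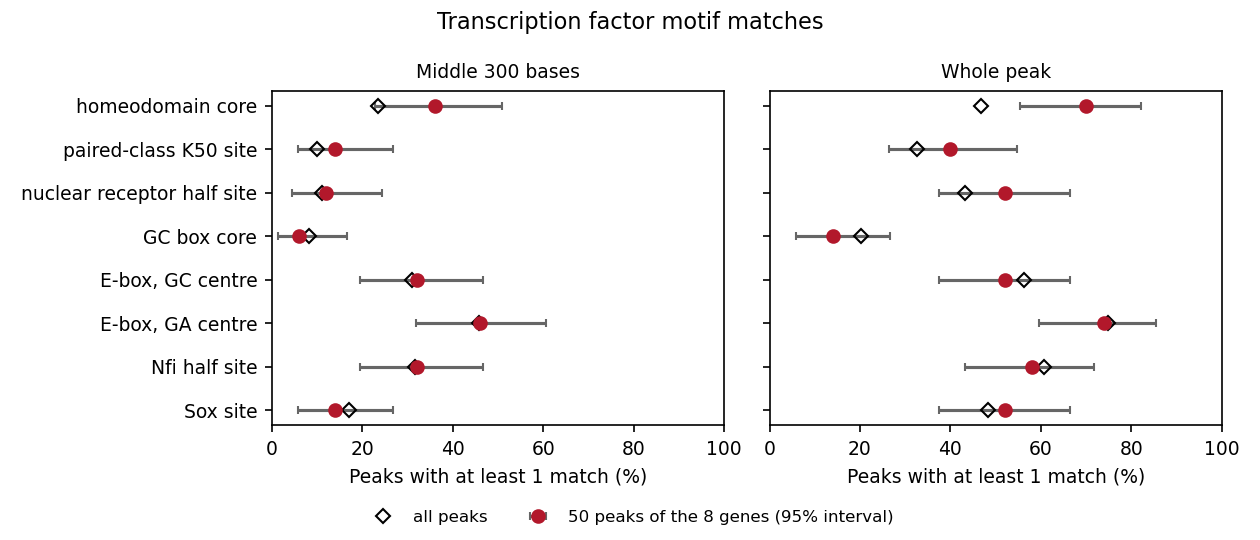
Share of the 50 peaks with at least 1 match to each of 8 short sites (filled circles, exact Clopper-Pearson 95% intervals) and of all 6629 peaks (open diamonds), in the middle 300 bases (left) and over the whole peak (right). In the right panel the homeodomain core, TAATTA, is at 70.0% against 46.7%, and the other diamonds fall inside the intervals.

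To ask whether the listed peaks of paralogous genes shared sequence, each peak was aligned to those of the other genes with blastn at an E-value of at most 1e-05. No alignment was found in the 60 pairs of peaks from *Emx1* and *Emx2*, the 30 from *Nr2f1* and *Nr2f2* or the 12 from *Otx1* and *Otx2*, nor in any of the 1059 pairs between the 8 genes. More diverged similarity was not searched for.

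Other genes of cortical patterning were counted in the same windows from lists drawn up with the paper and earlier results known. Of 23 further cortical factors, 5 passed the exact test against the background of 4.09%, and the median was 7 peaks, compared with 5.5 for the 8 genes described here and 1 for all protein-coding genes. Those that passed included *Neurog2*, a proneural gene, with 16 peaks (fold 6.18), *Tcf7l2*, a nuclear effector of Wnt signalling, with 12 (4.63), *Etv1* with 11 (4.25) and *Fezf2*, a gene of deep layer neurons, with 10 (3.86). *Lhx2*, a selector of cortical fate, had 8 (adjusted p = 0.0869 by the exact test). Among 21 genes of patterning signals and their regulators the median was 2 peaks, and *Wnt7b* and *Bmp7* passed with 10 each. *Fgf8* had 3, *Wnt3a*, *Wnt8b* and *Shh* 1 each, and *Bmp4* and *Fgf17* none. Of 12 genes with area-restricted expression *Epha5*, an ephrin receptor gene, passed with 10 (median 4). Of 13 relatives of the 8 factors *Pax7*, with 11, and *Noto*, through the peaks it shares with *Emx1*, passed (median 3), and *Nr2f6* had none. Of 11 subpallial factors *Olig2*, a bHLH gene, passed with 11 peaks (median 3), *Dlx1* and *Dlx2* had 7 each (adjusted p = 0.197 by the exact test) and *Nkx2-1* had 1.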

How the data were processed

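The deposited file is a list of peak positions on mm9, with no score, signal or read count. Per the labels and the methods, the authors aligned reads of 36 bp to mm9 with ELAND, kept unique alignments carrying 2 mismatches or fewer, and ran MACS on the p300 library against the input with a fixed shift of 100 bp (the submitters' processing notes give MACS 1.4). Peaks over exons, those closer than 2.5 kb to a start site and those with suspected non-unique mapping were taken out by the authors' annotation, so binding at most promoters and exons is not represented (by GENCODE vM1, 39 listed peaks still had their midpoint in an exon). Depth per peak is unknown, and weaker binding below the peak threshold is not listed.

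Sequence was read from NCBIM37, the assembly of mm9, and genes from GENCODE vM1 (37273 genes). Peak counts per window were tested against the window's share of 2.56 Gb of assembled bases with a one-sided exact binomial test for every protein-coding gene, adjusted by Benjamini-Hochberg with a threshold of 0.05. Python 3.11.15, numpy 2.4.6, scipy 1.17.1, matplotlib 3.10.9 and blastn 2.17.0 were used, and the window test and the motif search were tested on simulated data. Named beside the 8 genes were coding genes that host their peaks in introns or have the nearest start site to at least 2 of them, with a few named for a single peak after the values were seen, and up to 4 genes of highest fold in each list, with others added after the values were seen. The 8 genes, the lists and the sites were chosen with earlier results of these data known.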

Additional observations from a re-analysis of the deposited data

How the results depend on the processing

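Of 11 alternatives to the window test, 9 kept *Pax6* past the threshold and 9 kept *Emx1*. Several of the 11 could hardly alter a call, since the counts and expected numbers of all 8 genes stayed as they were. These were leaving out the gene body, using the most upstream start, counting any overlap with the window, and adjusting over all annotated genes. The number of the 8 genes that passed went from 2 to 1 with 100 kb each side of the start site (*Emx1* alone), to 1 when narrower peaks than the median were dropped (*Pax6* alone, since *Emx1* kept 4 such peaks, adjusted p = 0.455 by the exact test) and to 0 after merging peaks whose gap was under 5 kb. None of the other 6 genes passed under any of the 11. Their fold fell below 1 in 3 cases: *Nr2f2* was at 0 within 100 kb and at 0.965 within 1 Mb, and *Otx1* was at 0.579 within 1 Mb. The share of protein-coding genes that passed was 0.881% with 100 kb, 2.08% with 250 kb, 6.87% with 1 Mb, 2.31% with joined peaks, 2.05% with wide peaks and 1.14% with regulatory domains. Counted among the start sites of all annotated genes, the named gene was nearest for 18.0% of the 50 peaks instead of 50%. Small RNA genes, pseudogenes and other non-coding genes then count as neighbours. No paired analysis was possible because the series has 1 library of each kind.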

Other observations

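With all annotated genes counted, a non-coding gene or pseudogene had the nearest start site for 26 of the 50 peaks (52.0%). At *Nr2f2*, 4 of the 5 peaks were nearest to a gene annotated as SNORA17, a small nucleolar RNA, and at *Pax6* 3 peaks each were nearest to Gm13890, Gm13954 and Gm13992. *Emx1* and *Emx2* differed from the rest, in that each of their 16 peaks had a gene annotated as protein-coding as its nearest neighbour under either count. For *Emx1* peak 5321 that gene was Spr-ps1, which carries the name of a pseudogene.

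Just inside the limit of 500 kb, the outermost peaks lay 452 kb upstream of *Emx2* and 415 kb downstream of *Pax6*. Just outside it, the closest were 525.5 kb downstream of *Pax6* and 554.5 kb upstream of *Emx2*.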
